A study of Sus scrofa with 8 samples.

Results

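The mitochondrial genome genes are the genes of the deposited pig annotation that lie on the mitochondrial sequence and whose names begin with MT-. The rule found 37 of the 30390 genes in the annotation, 13 that encode proteins, 2 that encode ribosomal RNAs and 22 that encode transfer RNAs, and no other gene was placed on that sequence. The annotation served as the Cell Ranger reference for 8 libraries of 3′ scRNA-seq, 1 from each of 4 wild-type and 4 CFTR-/- newborn pigs, made from submucosal glands (SMGs) dissected from the trachea. SMGs lie under the airway lining and release mucus, liquid and antimicrobial proteins, and loss of the anion channel CFTR causes cystic fibrosis. The same annotation was used for both genotypes and holds no value per animal, so the genotypes could not be compared, the depth is unknown and no replicate error can be given. Coordinates are on Sscrofa11.1 and are counted from 1 on the mitochondrial sequence, a circle of 16613 bases.

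Mitochondria keep a small circular genome of their own, which encodes core subunits of the respiratory chain and ATP synthase together with the ribosomal and transfer RNAs needed to translate them. All other subunits of those complexes are encoded in the nucleus and imported. Each mitochondrial strand is transcribed as a long precursor that is cut at the transfer RNAs. Most of the released mRNAs receive poly(A) tails, which can complete a stop codon that the DNA spells only in part. In single-cell studies the share of reads from these genes is widely used as a measure of cell quality. Among other conditions, Cell Ranger gives a read to a gene only if its strand matches and no other gene has an exon there on that strand. The ends and overlaps of these models can therefore bear on which mitochondrial reads are counted.

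The ends of the protein-coding models are shown first because each was trimmed by 3 bases in the annotation. The lines below give the sense strand around the ends of 6 genes with a stop codon spelled in part and, for comparison, 3 with a complete one. Capitals mark the stop_codon row of the annotation, which began right after the last exon base of the model.
MT-ND1 (MT, 4865 to 4885): ccccacaatCATagaaatatg
MT-ND2 (MT, 6117 to 6137): cgtccctaaACTaggaattta
MT-COX2 (MT, 8879 to 8899): tattaacagGTTcattgagaa
MT-COX3 (MT, 10572 to 10592): gatgaggatCCTactctttta
MT-ND3 (MT, 10987 to 11007): aatgagcagAATatgataatt
MT-ND4 (MT, 12725 to 12745): gacccctttACTgtagatata
MT-COX1 (MT, 8044 to 8064): aacctaaaaTAAgcataagaa
MT-ND6 (MT, 14730 to 14750, minus strand): cgtggtaatTAAatagtgtta
MT-CYTB (MT, 16470 to 16490): ttaaaatgaAGAgtcttcgta

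In the first 6 of these genes the stop_codon row held no stop codon of the vertebrate mitochondrial code. Its last base, a T, was all that the gene held of the stop codon, and the bases before it belonged to the last amino acid. All 6 ended in T and 0 in TA. In 5 of them, MT-ND1, MT-ND2, MT-COX2, MT-COX3 and MT-ND4, a transfer RNA on the same strand began at the very next base, and MT-ND3 was separated from MT-tRNAArg by 1 base. The other 7 protein-coding genes had a complete stop codon, AGA in MT-CYTB and TAA in the remaining 6. In every case the coding rows stopped 3 bases before the end of the gene row. For the 7 genes with a complete stop, only that codon was left out of the coding rows. Those of the 6 genes with a partial stop were 1 base over a whole number of codons, and those of the other 7 were whole.

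Trimmed ends of this kind were nearly absent from the nuclear models. All 13 had the stop codon outside their exon rows, as against 1 of the 20800 nuclear coding genes with exons (TNFAIP3, an inhibitor of NF-κB signaling). The exon rows of the 13 carried a reading frame, which 0 exon rows of nuclear genes did. In the RefSeq annotation of the same release the spans of all 37 genes were the same, and so were the exons of the 24 RNA genes. The exons of the 13 protein-coding genes matched no RefSeq exon, and they were 3 bases shorter than the shared spans.

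The order of the genes was read clockwise from MT-tRNAPhe, which began at base 1176, to MT-tRNAPro, which ended at the last base of the sequence. The ribosomal RNA genes came first, MT-12SrRNA for the small subunit and MT-16SrRNA for the large one, each preceded by a transfer RNA gene (MT-tRNAPhe and MT-tRNAVal). MT-tRNALeu for the UUR codons, MT-ND1, the cluster Ile, Gln and Met, MT-ND2 and the cluster Trp, Ala, Asn, Cys and Tyr followed. Then came MT-COX1, MT-tRNASer for the UCN codons, MT-tRNAAsp, MT-COX2, MT-tRNALys, MT-ATP8, MT-ATP6, MT-COX3, MT-tRNAGly, MT-ND3, MT-tRNAArg, MT-ND4L and MT-ND4. The cluster His, Ser (AGY) and Leu (CUN), MT-ND5, MT-ND6, MT-tRNAGlu, MT-CYTB, MT-tRNAThr and MT-tRNAPro completed the circle. Transfer RNA genes thus stood next to most protein-coding genes and between the ribosomal RNA genes.

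**Figure D1:**
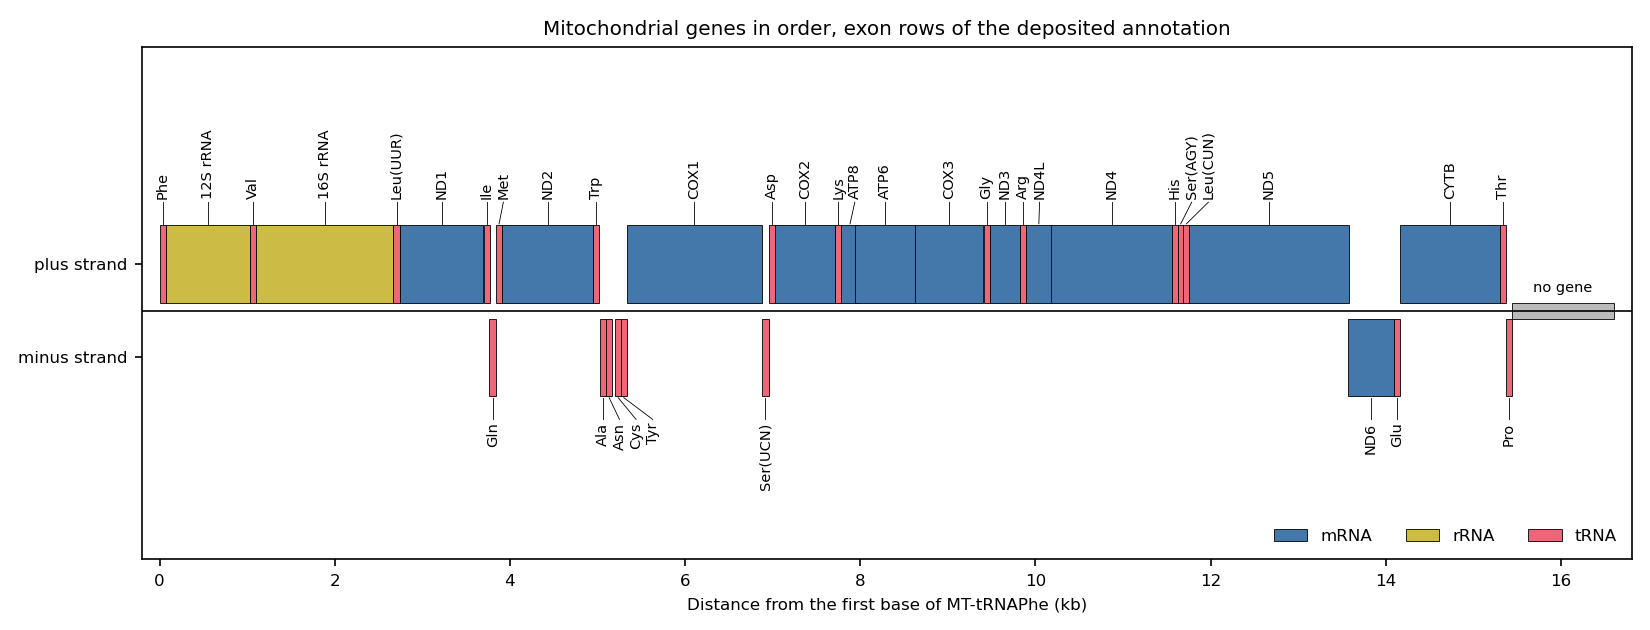
Map of the 37 mitochondrial genes, with distance from the first base of MT-tRNAPhe in kb on the x axis and the strand on the y axis. Boxes are exon rows drawn to scale and colored by kind, and 28 boxes lie on the plus strand, 9 on the minus strand, with no gene in the last 1175 bases.

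The strands were used unequally, as the map of the genes shows. The plus strand held 28 genes and 93.0% of the exon bases of the 37 genes. The 9 genes on the minus strand were MT-ND6 and the transfer RNA genes for Gln, Ala, Asn, Cys, Tyr, Ser (UCN), Glu and Pro. Exons on the plus strand covered 86.0% of the mitochondrial sequence and exons on the minus strand 6.48%.

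The RNA genes and the protein-coding genes differed in how they were entered. All 24 RNA genes (22 transfer and 2 ribosomal) consisted of a single exon row and lacked a gene row, the line that gives the extent of a gene. All 13 protein-coding genes had a gene row and 4 further rows, for an exon, a coding segment, a start codon and a stop codon, which made 89 rows on the sequence. Among the 30353 nuclear genes, 2 lacked a gene row (ANKRD45 and STYXL1). The RNA genes carried Ensembl identifiers, from ENSSSCG00000018060 for MT-tRNAPhe to ENSSSCG00000018096 for MT-tRNAPro, and the protein-coding genes carried NCBI gene numbers, from 808501 for MT-ND1 to 808513 for MT-CYTB. MT-tRNAGly and MT-tRNAArg lacked the biotype label that the other 35 carried.

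The 37 genes had 35 names. MT-tRNALeu named both leucine transfer RNA genes, which lay at bases 3845 to 3919 and 12865 to 12934, and MT-tRNASer named both serine genes. In each pair the genes read different codon families and were not near-copies of each other, since the leucine genes differed by 38 edits (50.7% of the longer one) and the serine genes by 39 edits (54.9%). Among nuclear genes 0 names stood on more than 1 gene. The UUR leucine gene serves 110 codons of the 13 coding sequences and the CUN gene 469, whereas the UCN serine gene serves 227 and the AGY gene 54, of 3794 codons in all. MT-2B, a metallothionein gene and the 1 nuclear gene whose RefSeq name begins with MT-, was written MT2B in the deposited annotation, so that the prefix selected mitochondrial genes alone.

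Complex I (NADH dehydrogenase), which passes electrons from NADH to ubiquinone, had 7 mitochondrial genes. Their coding rows were 1818 bases long in MT-ND5, 1375 in MT-ND4, 1039 in MT-ND2, 952 in MT-ND1, 525 in MT-ND6, 343 in MT-ND3 and 294 in MT-ND4L. These encode membrane subunits, from 606 residues in MT-ND5 to 98 in MT-ND4L. The complex also held the unusual start codons, ATT in MT-ND2, ATA in MT-ND3 and MT-ND5 and GTG in MT-ND4L, whereas the other 9 protein-coding genes began with ATG.
MT-ND2 start (MT, 5087 to 5098): ATTaatcccatt
MT-ND3 start (MT, 10653 to 10664): ATAaatattata
MT-ND4L start (MT, 11069 to 11080): GTGccattagta
MT-ND5 start (MT, 12935 to 12946): ATAaacccattc
Capitals mark the start codon in these lines, which are given because none of them is ATG.

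The nuclear genes of complex I were shorter at the median and had several exons. The 37 nuclear genes of the complex had a median coding length of 435 bases, from 210 in NDUFA1 to 2181 in NDUFS1 (an iron-sulfur subunit), as against a median of 952 for the 7 mitochondrial ones. Their 3′ UTR ran from 15 bases in NDUFS7 to 2293 in NDUFA5. The ranges of coding length overlapped, with all 7 mitochondrial genes inside the nuclear range.

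Complex III, which passes electrons from ubiquinol to cytochrome c, had 1 mitochondrial gene, MT-CYTB for cytochrome b, with 1137 coding bases and 379 residues. The 2 nuclear genes of the complex that matched a listed name were shorter, UQCR10 with 192 coding bases and UQCRB with 333. The rest of the 9 listed names, among them UQCRC1, UQCRC2 and CYC1, matched no gene, so their lengths were not compared. Complex II, the succinate dehydrogenase, had 0 mitochondrial genes. Its 4 nuclear genes ranged from 471 coding bases in SDHD to 1995 in SDHA, and their 3′ UTRs from 151 bases in SDHB to 817 in SDHD.

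Complex IV, the cytochrome c oxidase that reduces oxygen, had 3 mitochondrial genes, which encode its catalytic core. MT-COX1 had 1542 coding bases, MT-COX3 781 and MT-COX2 685. All 3 were longer than each of the 7 nuclear genes found for the complex, which ran from 189 bases in COX7C to 387 in COX5B. The 3′ UTRs of those nuclear genes ran from 39 bases in COX7A1 to 189 in COX6A1. By the longest coding transcript the upper end was 298 bases, in NDUFA4, which had 158 by the transcript ending farthest 3′.

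Complex V, the ATP synthase, had 2 mitochondrial genes. MT-ATP6, the membrane subunit through which protons pass, had 678 coding bases, and MT-ATP8, the shortest protein-coding gene of the 13, had 201 and encodes 67 residues. The 15 nuclear genes of the complex ran from 153 coding bases in ATP5E to 1686 in ATP5B, the catalytic beta subunit, and their 3′ UTRs from 67 bases in both ATP5I and ATP5O to 2126 in ATP5L. The mitochondrial genes of this complex therefore lay inside the nuclear range.

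**Figure D2:**
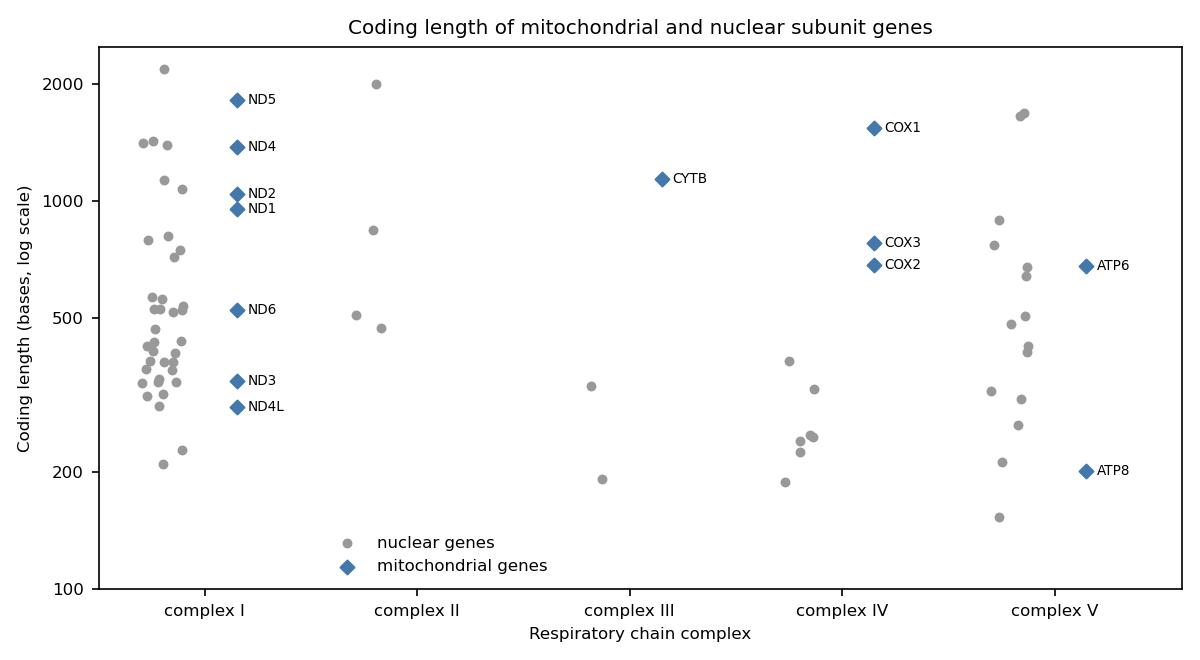
Coding length in bases on a log scale for the mitochondrial genes (diamonds, with names) and the nuclear genes found (circles, spread sideways for sight) of the 5 respiratory chain complexes. Each of the 3 complex IV diamonds lies above all 7 nuclear circles, whereas the 7 complex I diamonds lie among the nuclear circles.

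Over all complexes the median coding length was 781 bases for the 13 mitochondrial genes and 423 for the 65 nuclear subunit genes found among 77 listed names, beside 1206 for all 20661 nuclear protein-coding genes. The structure of the models differed more than their length. Each of the 13 mitochondrial genes had a single exon and 0 bases of 3′ UTR. Of the 65 nuclear subunit genes, 0 had a single exon and 0 lacked a 3′ UTR, with medians of 4 exons and 135 bases of 3′ UTR, and of all nuclear protein-coding genes 4.69% had both features. The translated mitochondrial sequences held 0 internal stop codons.

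The ribosomal RNA genes were 960 bases long for MT-12SrRNA and 1571 for MT-16SrRNA, and together covered 15.2% of the sequence. The 22 transfer RNA genes covered 9.07% and had a median length of 69 bases, from 59 in MT-tRNASer (AGY) to 75 in MT-tRNALeu (UUR) and MT-tRNAAsn. The 510 nuclear transfer RNA genes had a median of 73 bases and ran from 71 to 84. The mitochondrial range thus reached below the shortest nuclear gene. The protein-coding exons covered 68.1% of the sequence.

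Of the 37 pairs of neighbors round the circle, 5 shared exon bases, 13 abutted and 19 were separated. MT-ATP8 and MT-ATP6 shared 40 bases on the same strand (MT, 9120 to 9159), which was 19.9% of MT-ATP8 and 5.90% of MT-ATP6. The shared stretch was the 3′ end of MT-ATP8, so that 40 of its last 100 exon bases lay in another gene on the same strand. No transfer RNA gene lay between the pair, which in mammals is known to share an mRNA whose tail follows MT-ATP6. MT-ND4L and MT-ND4 shared 4 bases on the same strand, also at the 3′ end of the upstream gene, and MT-tRNACys and MT-tRNATyr shared 1. The remaining overlaps were between opposite strands, 11 bases at the facing 3′ ends of MT-ND5 and MT-ND6 and 3 bases between MT-tRNAIle and MT-tRNAGln. A read on 1 strand is not ambiguous there, since the partner lies on the other. The following stretches show these junctions on the plus strand.
MT-ATP8 and MT-ATP6, left end (MT, 9110 to 9133): gagaaataaaATGaacgaaaatct
MT-ATP8 and MT-ATP6, right end (MT, 9149 to 9172): tgcccccacgaTAAtaggactacc
MT-ND4L and MT-ND4 (MT, 11350 to 11374): ccttttacaATGCTAAaaattatta
MT-ATP6 and MT-COX3 (MT, 9790 to 9810): acaatacataAtgacccacca
MT-ND5 and MT-ND6 (MT, 14733 to 14761): cactatTTAATTACCACGAGTAAtctcta
MT-tRNAIle and MT-tRNAGln (MT, 4934 to 4954): ctcttatttCTAgaacaatag
Capitals mark the start codon of MT-ATP6 in the first line and the stop codon of MT-ATP8 in the second, and the bases shared by both gene spans in the others.

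When the stop codons were counted with the genes, 6 pairs overlapped. The overlaps grew to 43 bases for MT-ATP8 and MT-ATP6, 7 for MT-ND4L and MT-ND4 and 17 for MT-ND5 and MT-ND6. MT-ATP6 and MT-COX3, which were 2 bases apart by exon rows, then shared 1 base, the last base of the TAA of MT-ATP6, which is also the first of the ATG of MT-COX3. Of the 19 gaps between exon rows, 7 existed only because of the 3 bases left out at the end of a protein-coding gene.

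**Figure D3:**
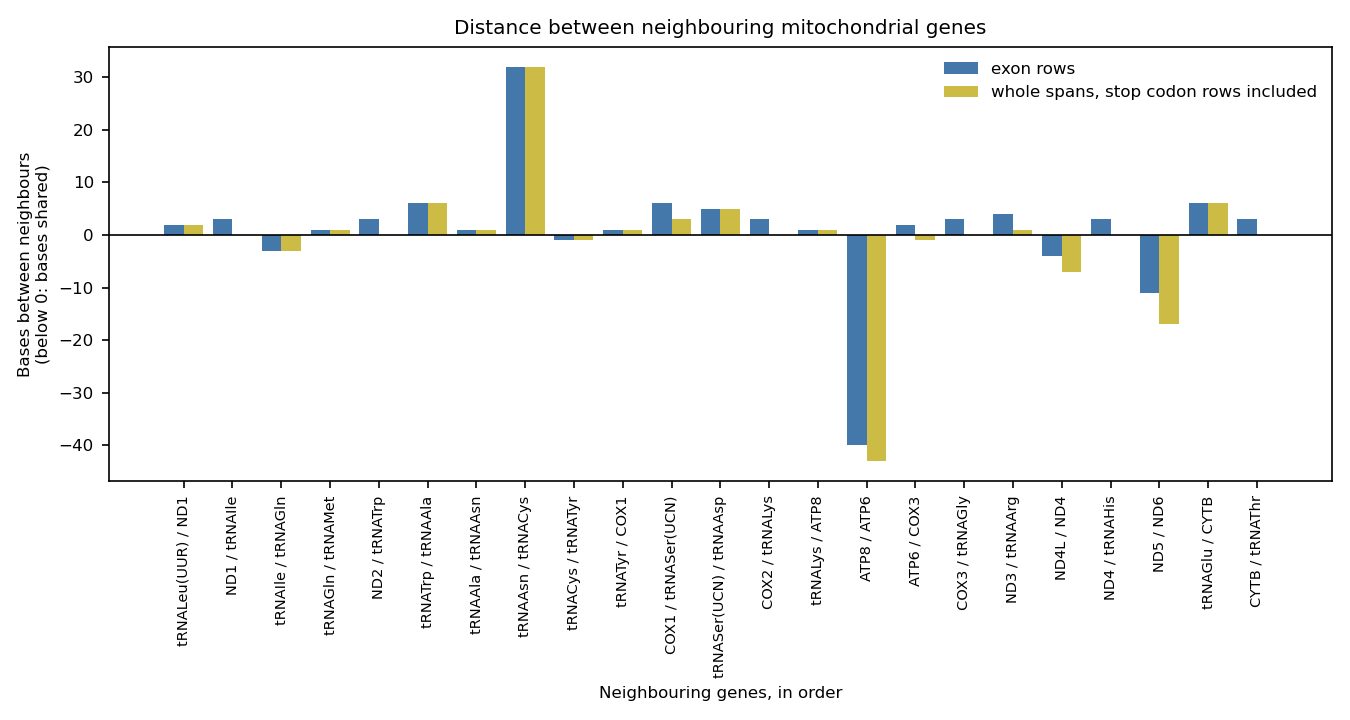
Bases between neighboring genes (y axis, negative where bases are shared) for the pairs that did not abut on both scales, in order round the circle, by exon rows and by whole spans. The pair MT-ATP8 and MT-ATP6 stands lowest at 40 shared exon bases and the pair MT-tRNAAsn and MT-tRNACys highest at 32 bases apart, and the region of 1175 bases without a gene is left out.

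The genes left 1260 bases (7.58%) of the mitochondrial sequence without an exon. Of these, 1175 formed a single stretch between MT-tRNAPro and MT-tRNAPhe (MT, 1 to 1175), the control region, which in vertebrates holds the promoters and the origin of heavy-strand replication. It contained 13 head-to-tail copies of the unit of 10 bases tacacgtgcg at bases 707 to 836. The other 18 gaps added up to 85 bases by exon rows. The longest, 32 bases between MT-tRNAAsn and MT-tRNACys (MT, 6347 to 6378), is where the origin of light-strand replication lies in vertebrates, and held complementary arms of 8 bases (ctcccgcc and ggcgggag) around a loop of 13 bases (gcaggaaaaaaaa). None of the remaining gaps exceeded 6 bases, and 6 were of 3 bases.

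The base composition of the protein-coding genes differed with the strand they lay on. Read on the sense strand, the 12 protein-coding genes of the plus strand held 29.2 to 40.3% A and 7.46 to 16.6% G. MT-ND6, the 1 protein-coding gene of the minus strand, held 20.6% A, 27.2% G, 7.24% C and 45.0% T, outside the range of the other 12 for each of the 4 bases. The split was wider at the third base of codons, where G made up 3.84% in the 12 genes and 22.3% in MT-ND6, and C 32.0% and 1.14%. Among the transfer RNA genes G alone separated the strands, with 8.70 to 20.9% in the 14 genes of the plus strand and 22.1 to 28.2% in the 8 of the minus strand. Their ranges of A overlapped, at 28.6 to 42.0% on the plus strand and 20.3 to 33.3% on the minus strand, and so did those of C and T. The 65 nuclear subunit genes had medians of 23.8% A and 27.7% G in their coding sequence, close to those of all nuclear protein-coding genes (23.6% and 27.0%).

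**Figure D4:**
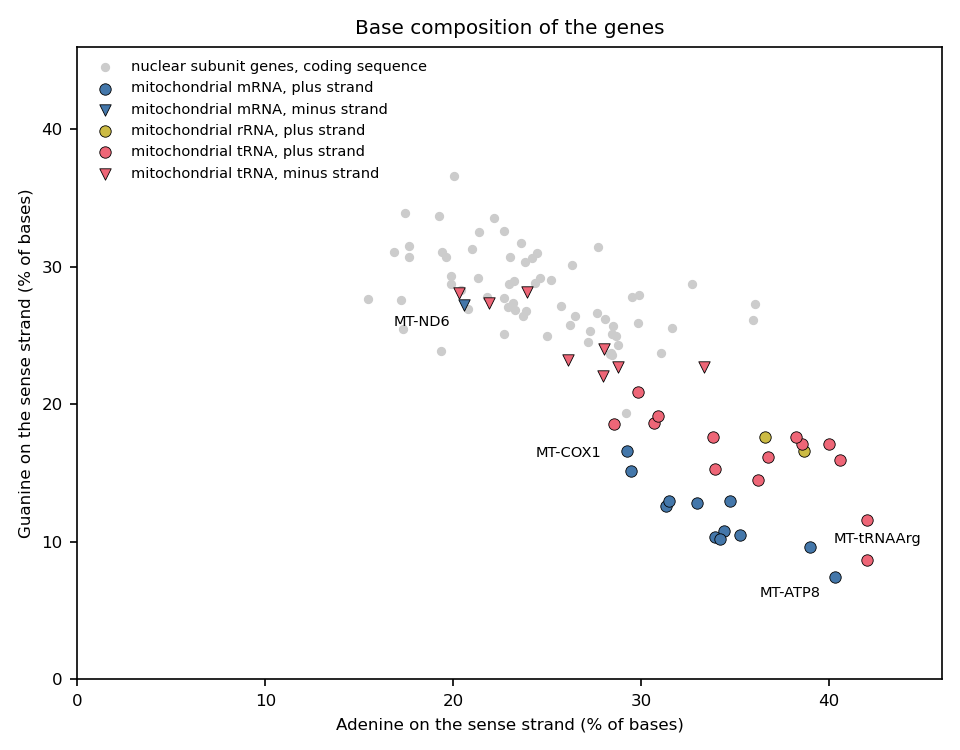
Guanine against adenine on the sense strand, in percent of bases, for each of the 37 mitochondrial genes (colored by kind, with circles for the plus strand and triangles for the minus strand) and the coding sequences of 65 nuclear subunit genes (gray). MT-ND6 lies at 20.6% adenine and 27.2% guanine among the nuclear genes, and the other 12 mRNA genes lie at 7.46 to 16.6% guanine.

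Runs of A inside a transcript matter for libraries primed with oligo-dT, which can anneal to them as well as to the tail. A run of at least 6 A on the sense strand was present in 9 of the 37 genes, namely both ribosomal RNA genes, MT-tRNAIle, MT-tRNALeu (CUN), MT-ND2, MT-COX1, MT-ND3, MT-ND4 and MT-ND5. The ribosomal RNA genes held 4 such runs, 1.58 per kb, and the protein-coding genes 6, or 0.528 per kb. Since the mitochondrial mRNA models hold no UTR, they were set beside nuclear coding sequences, which held 0.363 per kb over all protein-coding genes and 0.288 over the subunit genes, both below the mitochondrial value. With UTRs included, the nuclear exons held 0.647 and 0.386 per kb, and the mitochondrial value then lay between these. The longest run, of 8 A, lay in MT-12SrRNA (MT, 1545 to 1564, run in capitals): tttaagAAAAAAAAtcacaa. MT-ND6 and the 8 transfer RNA genes of the minus strand had runs of at most 4 A. The same held on the plus strand for MT-ND4L and the transfer RNA genes for Phe, Val, Leu (UUR), Met, Trp, Asp, Lys, Arg and Thr.

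Stretches of the nuclear genome resembled nearly all of the genes. Such copies are known from many animals as nuclear insertions of mitochondrial DNA. A read can align to both places, but whether this changed the counts was not tested. At least 100 bases and 90% identity were reached by 45 nuclear alignments of the mitochondrial sequence. Each was counted as a copy, but some adjoin, as on chromosomes 8, 9 and 15, so 45 is not a count of separate places. Of the 37 genes, 36 had at least 50 bases in at least 1 of these alignments. The exception was MT-tRNAPhe, although a stretch identical to all of its 70 bases lay on chromosome X inside an alignment of 88.5% identity. The mitochondrial reference came from a Landrace pig and the nuclear one from a Duroc pig, and the animals of the study were not compared with either.

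The longest single alignment, of 11012 positions at 90.6% identity, lay on chromosome 2 (115563170 to 115574158). It held at least 50 bases of each of 28 genes in their mitochondrial order, from MT-ND2 to MT-tRNAPro. A second on the same chromosome (93844374 to 93849155) held at least 50 bases of each of 11 genes from MT-ND3 to MT-CYTB at 90.7%. Genes at the ends of an alignment could be held in part, as MT-ND2 was in the first and MT-CYTB in the second. Closer copies were shorter. A stretch of 188 bases on chromosome 1 (89603554 to 89603741) with MT-tRNAIle and MT-tRNAGln was 100% identical, as was 1 of 174 bases on chromosome 8 (12487560 to 12487733) that matched the control region and held no gene. On chromosome 4 (53952874 to 53954297) 1425 positions from within MT-12SrRNA into MT-16SrRNA were 98.5% identical. On chromosome 9 (4700025 to 4702188) 3 adjoining alignments were 98.5, 99.2 and 98.7% identical, the middle one in inverted orientation. They reached from within MT-ND2 into MT-COX1 and from within MT-COX2 into MT-ATP8, and included 416 identical bases in a row. Neighboring alignments were not joined. With alignments down to 50 bases and 80% identity, a series of alignments on chromosome X lay between 22061762 and 22074446. The longest of them had 4227 positions at 84.4% identity, reaching from within MT-ND4 to MT-tRNAPro. Another had 3202 positions at 89.9%, from within MT-16SrRNA to MT-tRNAAsn.

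The transfer RNA genes had the closest full-length copies and the protein-coding genes more distant ones. The transfer RNA genes were also shorter, and the identity was not adjusted for length or for the number of copies. Full-length copies ran from 8 for MT-tRNAArg to 41 for MT-tRNATrp, and from 1 for MT-ND2 to 11 for MT-ND1 among protein-coding genes. Full-length copies were not held to the limit of 90% identity used for the 45 alignments. All 22 transfer RNA genes had a full-length nuclear copy, and for 10 of them (Phe, Leu (UUR), Ile, Gln, Met, Trp, Asn, Tyr, Lys and Arg) the closest copy was identical. All 13 protein-coding genes had a full-length copy too, and 0 were identical. The identity of the closest ran from 84.4% for MT-ND2 to 93.1% for MT-ND6. It was below 90% for MT-ND2, MT-ATP6, MT-ND3, MT-ND4L, MT-ND5 and MT-CYTB. MT-12SrRNA had a single full-length alignment at 70.9%, and MT-16SrRNA had 0. Over stretches shorter than the gene the order was different. MT-COX1 had the longest stretch without a difference, 335 bases on chromosome 9, followed by MT-ND1 (221 bases), MT-12SrRNA (209), MT-16SrRNA (208) and MT-COX2 (193). MT-ND4L had the shortest among the protein-coding genes, 26 bases, and MT-ND3 had 35.

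**Figure D5:**
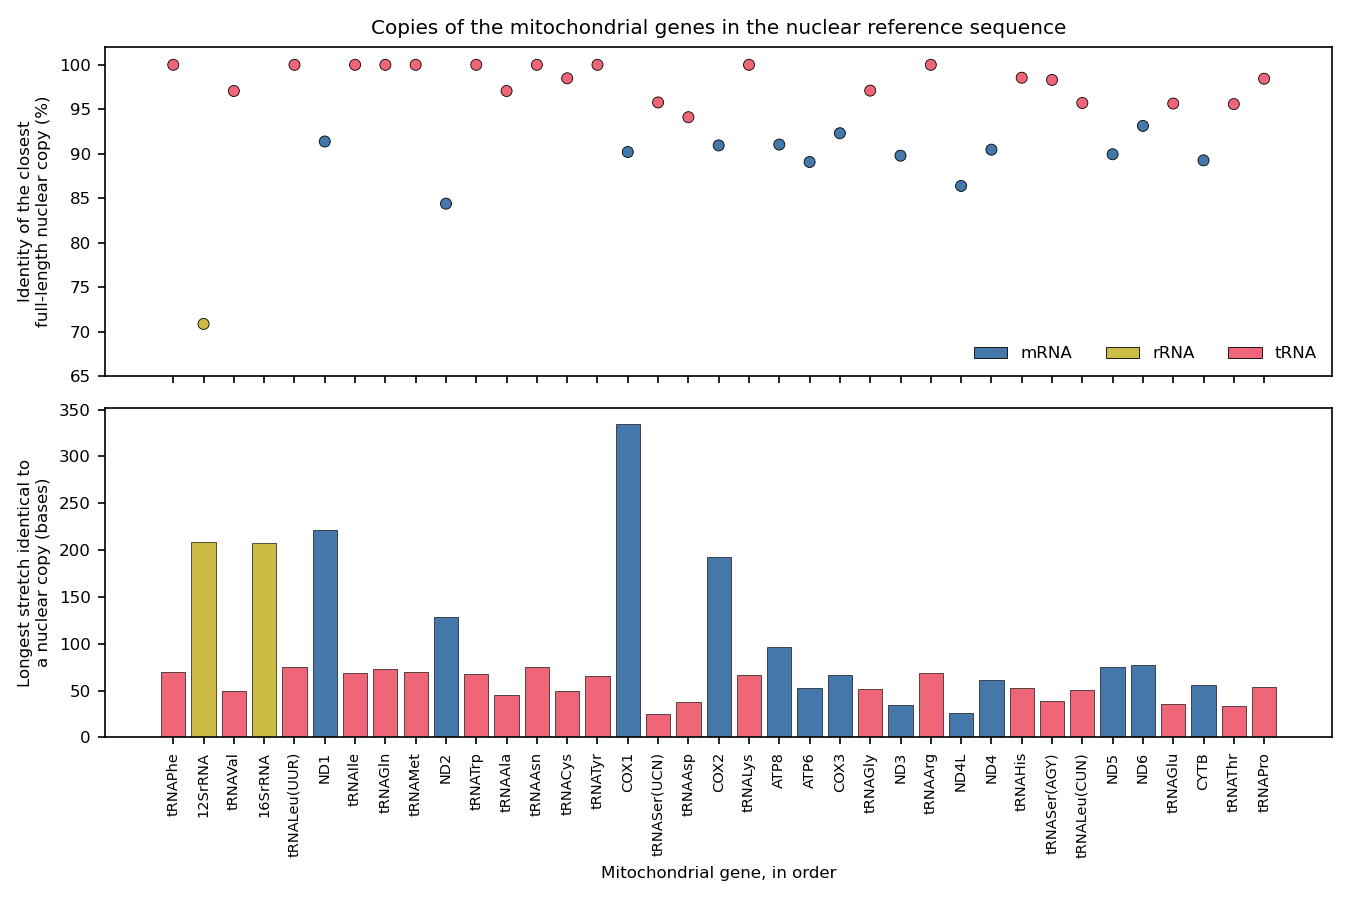
Identity in percent of the closest full-length nuclear copy (upper panel, axis from 65%) and the longest stretch in bases identical to a nuclear copy (lower panel) for the mitochondrial genes in order, colored by kind. MT-16SrRNA has no point in the upper panel because no alignment held its full length, and MT-COX1 has the tallest bar at 335 bases.

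Few of the copies lay in exons that could take such reads. Of the 45 alignments, 21 lay in the span of a nuclear gene and 2 touched an exon, both of long noncoding RNA genes. The share of the whole nuclear sequence in gene spans or exons was not computed. Whether the copies differ from that share was therefore not tested. LOC110260298 on chromosome 4 held 131 exon bases of a copy of MT-16SrRNA (81460965 to 81461100, 94.9% identity) in the same sense as the mitochondrial gene, with 68 identical bases in a row. LOC106506288 on chromosome 15 held 162 exon bases of a copy of MT-ATP6 and MT-COX3 (90309358 to 90309959, 92.9%) in the opposite sense, so that a read from either mitochondrial gene would fall on the other strand. With alignments down to 50 bases and 80% identity, 1 more gene was added, LEPR, the leptin receptor, in which 75 exon bases on chromosome 6 (146806243 to 146806317) were 93.3% identical to MT-tRNAAsn in the same sense. Whether reads were assigned to these 3 genes was not tested, since the count matrices were not analysed here.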

How the data were processed

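SMGs of 8 newborn pigs (4 wild-type, 4 CFTR-/-) were profiled by the authors with droplet-based 3′ scRNA-seq. The deposited file used here is their edited gene annotation. Per the file headers it started from NCBI Sus scrofa Annotation Release 106 on Sscrofa11.1, and identifiers from Ensembl and the prefix MT- were added to the mitochondrial genes. Its values are coordinates, so no depth, replicate error or test applies. The authors aligned the reads to it with Cell Ranger, whose version the submitters' notes give as 3.0.2. Count matrices were not analysed here.

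Neighbors were compared by exon rows. Sequences were read from the RefSeq genome of the same build and translated with the vertebrate mitochondrial genetic code. Overlaps, gaps, stop codons, runs of at least 6 A and base composition were computed with Python 3.11.15, pandas 2.3.3, pysam 0.24.0 and Biopython 1.88, and figures drawn with matplotlib 3.10.9. For nuclear genes the coding transcript ending farthest 3′ was used. Nuclear copies were found with blastn (BLAST+ 2.17.0, E-value 1e-05, samtools 1.23.1), counted from 100 bases and 90% identity, and assigned to a gene with at least 50 bases inside. A full-length copy spans all bases of the gene in 1 alignment and was not held to the limit of 90% identity. The measures were tested on simulated sequences and gene models.

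The genes and lists were chosen with earlier results of these data known. The genes named are all 37 mitochondrial ones, the nuclear subunit genes with the shortest and longest 3′ UTR and coding length of each complex, and the nuclear genes with a copy in an exon. ANKRD45, STYXL1, TNFAIP3 and MT-2B were chosen for naming once their values were known. Of 77 listed subunit genes, 65 were found by name, and the other 12 (7 of complex III, 5 of complex IV) were not analysed here.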

Additional observations from a re-analysis of the deposited data

How the results depend on the processing

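Of 18 alternatives for 10 results, 11 stayed within 1.5 times the reported value. Counting same-strand pairs alone gave 3 overlapping pairs in place of 5, and counting bases without an exon on the plus strand alone gave 2322 in place of 1260. A single gap reached 100 bases, and by whole spans, an alternative chosen after the data were seen, there were 12 gaps in place of 19, since 7 of the 19 arise from the 3 bases left out at a gene's end. Asking for 8 A in a row left 1 gene in place of 9, and 7 A in 10 bases gave 21. Nuclear copies of at least 95% identity held 17 genes in place of 36. Counting different names, also chosen after the data were seen, gave 35 genes in place of 37. No paired analysis was possible because the deposited coordinates are the same for every animal, and leaving out a replicate was not possible for the same reason. The depth of the libraries is unknown, so none of the statements says how many reads fall in a gene, an overlap or a copy.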
